A study of Homo sapiens with 48 samples.

Results

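The genes described here are 40 genes of the endoplasmic reticulum (ER) and its unfolded protein response, out of 57820 genes in the deposited table. They were chosen by gene name from a list in 5 roles: 5 stress sensors and their partners, 12 chaperones and co-chaperones, 4 enzymes of oxidative folding, 9 genes of ER-associated decay and 10 genes of protein translocation. All 40 were found, and all 40 were among the 19129 genes with enough counts to be tested, each with 140 or more expected counts in every library. VIMP, SRPR and the other names are those of the table.

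Secreted and membrane proteins enter the ER through the SEC61 channel, are folded there by chaperones and disulfide isomerases, and are retrotranslocated and degraded in the cytosol when folding fails. Unfolded proteins in the ER are sensed by IRE1 (encoded by ERN1), ATF6 and PERK (EIF2AK3). IRE1 splices the mRNA of the transcription factor XBP1, ATF6 is cleaved to release a transcription factor, and PERK phosphorylates a translation factor, which favours translation of ATF4. Nonsense-mediated mRNA decay (NMD), for which UPF1 is the central helicase, degrades transcripts with premature stop codons and also some normal transcripts, those of ATF4 and ERN1 being known examples.

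RNA was sequenced in 48 libraries of Flp-In 293 T-REx cells, a derivative of the human embryonic kidney line HEK293 that takes a transgene at a fixed genomic site. In each of 8 stable lines, 3 libraries came from cells given an siRNA against endogenous UPF1 (siUPF1) and 3 from cells given a non-targeting siRNA (siNT), at 40 nM for 72 h. The CLIP line carried only the protein tag of that name. A tagged UPF1 with the change K498A, DE636AA, R843C, A546H, GA-KH or E797R was made in 6 further lines, and tagged wild-type UPF1 in the line WT. K498A and DE636AA alter the motifs for ATP binding and ATP hydrolysis. All lines are stable transfectants of 1 parental line, and whether each is a clone or a pool is not given in the sources used here. The question behind the series is what autoinhibition and activation of the UPF1 ATPase do to NMD.

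The libraries held 21.3 to 47.1 M expected counts each. UPF1 was at 17.7, 18.2 and 36.8 CPM (counts scaled to a common library size by edgeR) in the CLIP siUPF1 libraries, against 105 to 113 CPM in the CLIP siNT libraries. In the other 7 lines, where transgene and endogenous reads share the gene, it was at 3695 to 8235 CPM with siUPF1 and 4027 to 6238 CPM with siNT, so the loss of endogenous UPF1 could not be seen there. CLIP siUPF1 replicate 2, the library with 36.8 CPM of UPF1, stood apart, with 0.631% of its counts from mitochondrially encoded genes against 1.54 to 2.92% in the other 47. CLIP results that rest on it are given with and without it. Of 6 genes reported for HEK293 cells, VIM, NEFL, KRT8 and KRT18 were at 72.9 CPM or more in every library, NEFM and PAX2 were at 9.12 CPM or less, and the blood cell markers PTPRC and CD3E were at 0.0938 CPM or less. With siUPF1, NEFL rose in all 8 lines (log2 fold changes of 0.43 to 0.79) and PAX2 fell in all 8 (-1.09 to -0.58), while VIM rose in CLIP (0.23) and fell in K498A (-0.25) and DE636AA (-0.23). By edgeR, 3 of the 6 rose and 1 fell in CLIP and E797R, and 2 rose and 2 fell in K498A, DE636AA, A546H and GA-KH. In WT 2 rose and 1 fell, and in R843C 1 and 1, so outside R843C others of the 6 changed as well. Of the markers of other cell types, 5 had enough counts to be tested. The epithelial EPCAM, at 63.1 to 98.6 CPM, fell in K498A (-0.33, edgeR adjusted p = 0.00169) and DE636AA (-0.39, adjusted p = 0.000208). The endothelial VWF, at 1.64 CPM or less, rose in 6 lines by 1.67 to 2.90, all but A546H and WT. The fibroblast marker COL3A1, at 2.63 to 13.4 CPM, rose in 6 by 0.68 or more, all but CLIP and R843C. CD14 rose in CLIP (1.30) and COL1A1 in none. The part of these markers in the results was not tested.

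The 40 genes together took 0.753 to 0.936% of the counts in siUPF1 libraries (median 0.841%) and 0.672 to 0.835% in siNT libraries (median 0.769%). In bulk RNA, a change in the number of cells that express a gene and a change in RNA per cell cannot be told apart, here and below. Across the lines, the median of their 40 log2 fold changes (siUPF1 over siNT) was 0.21 for CLIP, 0.16 for K498A, 0.22 for DE636AA, 0.13 for R843C, 0.07 for A546H, 0.10 for GA-KH, 0.20 for E797R and 0.18 for WT, while the median of all genes tested lay between -0.02 and 0.02. A gene was called where the edgeR quasi-likelihood test gave a Benjamini-Hochberg adjusted p under 0.05 over all 19129 genes. In CLIP, 17 of the 40 rose and 3 fell, which is 50% called against 47.4% of all genes. In K498A, 15 rose and 4 fell, 47.5% against 32.7%, and in DE636AA 20 rose and 4 fell, 60% against 34.3%. R843C had 12 higher, 30% against 32.5%, A546H 11, 27.5% against 32.2%, and GA-KH 12, 30% against 28.3%. E797R had 17 higher, 42.5% against 29.5%, and WT 18, 45% against 27.2%. In R843C, A546H and GA-KH the share called was therefore near that of all genes, and in CLIP it was so with siUPF1 replicate 2 included. Without that library 24 of the 40 were called in CLIP, while the number of all genes called fell from 9066 to 7872.

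The direction of the calls was uneven. Of the 133 calls over the 8 lines, 122 were higher and 11 lower with siUPF1, whereas among all genes 25.1% were called higher and 22.3% lower with siUPF1 in the CLIP line, and 14% and 13.3% in WT. No member was called lower in R843C, A546H, GA-KH, E797R or WT by edgeR. At an unadjusted p under 0.05 there was 1 lower in R843C, 1 in GA-KH and 0 in A546H, E797R and WT, and DESeq2 called 1 lower in GA-KH. A model of only the groups compared called 6 lower in R843C and 1 in E797R. In CLIP that model called 10 members, all higher, without ATF6, EIF2AK3, DNAJB9, SDF2L1, DNAJB11, SEL1L, VIMP, SEC61G, SEC62 and SSR2. Without CLIP siUPF1 replicate 2, 23 members of the CLIP line rose and 1 fell.

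**Figure D1:**
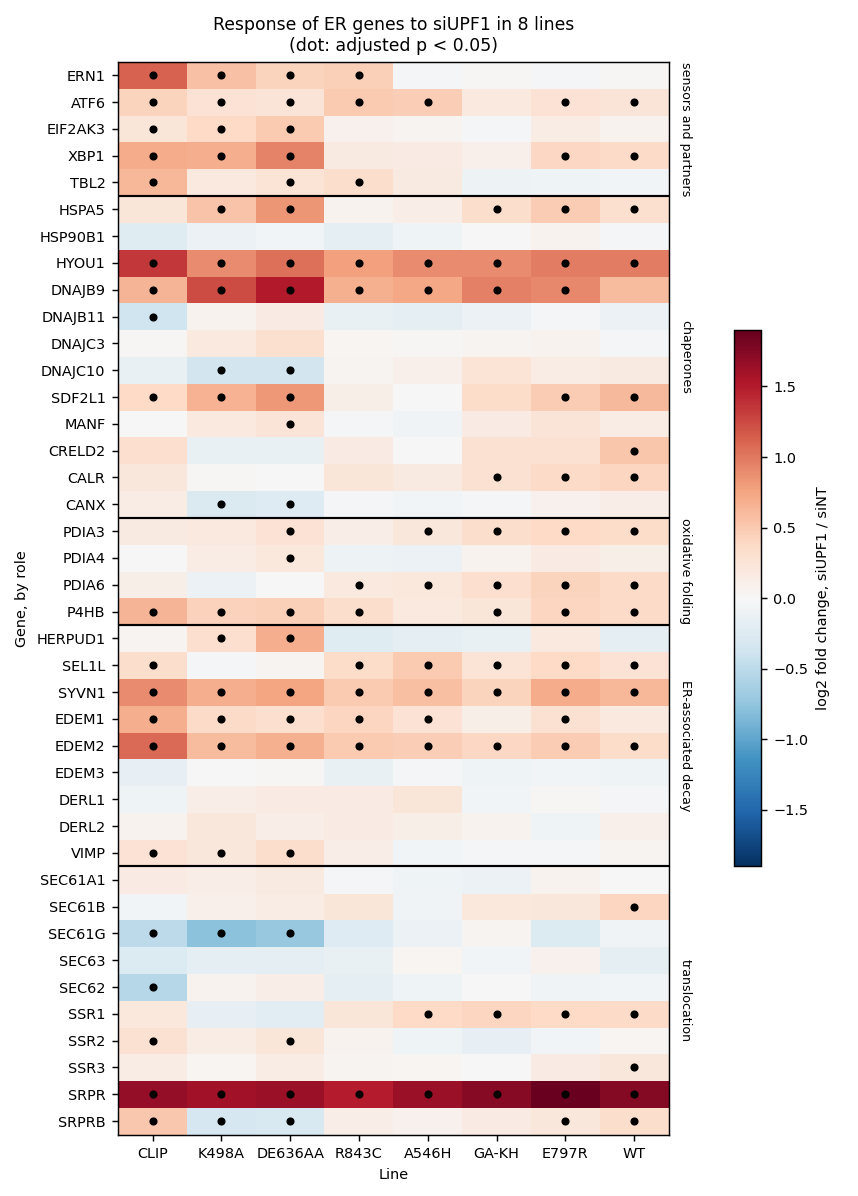
Log2 fold change (siUPF1 over siNT) of the 40 genes, in rows by role, in the 8 lines, in columns; red is higher with siUPF1, blue lower, and a dot marks an edgeR adjusted p under 0.05. The rows of SRPR, HYOU1, SYVN1 and EDEM2 are red with a dot in each column, SEC61G is blue in CLIP, K498A and DE636AA, and 7 rows have no dot.

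Promoter sequence was read to see which of the 40 genes carry the elements known to bind the transcription factors of this response. ERSE (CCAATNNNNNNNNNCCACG), bound by ATF6 with NF-Y, and ERSE-II (ATTGG, any 1 base, CCACG) were searched on both strands in windows from 250 bases before to 50 after the RefSeq start of each gene (GRCh38.p14). Windows were found for 37 members, all but PDIA3, DERL1 and SRPR. ERSE was in 7 of the 37 windows (18.9%), those of CALR, CANX, CRELD2, HSP90B1, HSPA5, PDIA6 and XBP1, against 0.066% of 27268 other genes. ERSE-II was in 3 (8.11%), those of HERPUD1, HYOU1 and SDF2L1, against 0.0587%. No member held both. The shorter motifs were less selective, with the UPRE letters TGACGTGG in 4 of 37 (10.8%, DNAJC10, HYOU1, SEC62 and SSR3) against 0.913%, and a CCAAT box, which is also part of ERSE and, read on the other strand, of ERSE-II, in 29 of 37 (78.4%) against 39.7%. HYOU1 and HSP90B1 held their element at 2 places. Because the members were chosen as genes of this response, these shares describe that choice and test nothing.

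The elements of the genes on which the results below turn are shown with 5 flanking bases on each side, 5′ to 3′ on the strand that carries the motif, with the fixed letters of the motif in capitals.
XBP1, ERSE, chr22:28800603-28800621, 52 bases before the start: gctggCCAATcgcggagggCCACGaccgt
HSPA5, ERSE, chr9:125241391-125241409, 66 bases before the start: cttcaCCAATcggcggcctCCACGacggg
PDIA6, ERSE, chr2:10812853-10812871, 86 bases before the start: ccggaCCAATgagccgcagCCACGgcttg
CANX, ERSE, chr5:179698778-179698796, 151 bases before the start: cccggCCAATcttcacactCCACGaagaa
HSP90B1, ERSE, chr12:103930216-103930234, 194 bases before the start: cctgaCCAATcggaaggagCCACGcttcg
HSP90B1, ERSE, chr12:103930321-103930339, 89 bases before the start: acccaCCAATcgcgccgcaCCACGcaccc
HERPUD1, ERSE-II, chr16:56932025-56932035, 117 bases before the start: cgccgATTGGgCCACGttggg
HYOU1, ERSE-II, chr11:119057274-119057284, 79 bases before the start: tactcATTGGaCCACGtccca
HYOU1, ERSE-II, chr11:119057380-119057390, 185 bases before the start: ctgggATTGGaCCACGtcacg
SDF2L1, ERSE-II, chr22:21642114-21642124, 188 bases before the start: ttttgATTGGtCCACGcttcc
XBP1, HSPA5, PDIA6 and HYOU1 lie on the minus strand of their chromosomes, and CANX, HSP90B1, HERPUD1 and SDF2L1 on the plus strand. Coordinates span the motif and are of GRCh38.p14; the deposited counts were made on hg19, per the submitters' processing notes, and carry no coordinates. The motif stands on the gene's own strand in XBP1, HSPA5, PDIA6, CANX, the first HSP90B1 element and HERPUD1, and on the other strand in the rest.

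Of the 5 sensors and partners, all 5 rose in CLIP, with or without siUPF1 replicate 2, and in DE636AA. In K498A 4 rose, in R843C 3, in E797R and WT 2, in A546H 1 and in GA-KH 0, and none fell in any line by edgeR. The share called was below that of all genes in A546H (20% against 32.2%) and GA-KH (0% against 28.3%), and above it in the other lines. ERN1 had the largest change, in CLIP. ERN1 (ENSG00000178607.11) encodes IRE1, the kinase and endoribonuclease that splices XBP1 mRNA. With siUPF1, ERN1 had 31.4, 36.7 and 34.4 CPM in CLIP, 23.6, 23.5 and 26.5 in K498A, 23.5, 27.1 and 28 in DE636AA, 22.9, 25.9 and 27.6 in R843C, 14.8, 16.6 and 16.5 in A546H, 16, 17.7 and 19.1 in GA-KH, 14.4, 13.2 and 20.8 in E797R and 16.2, 17.2 and 21.8 in WT. With siNT, ERN1 had 15.1, 15.5 and 16.3 CPM in CLIP, 16.5, 16.4 and 17 in K498A, 16.2, 21 and 21.5 in DE636AA, 17, 18.3 and 20.8 in R843C, 13.6, 16.9 and 18.4 in A546H, 15, 17.6 and 19.5 in GA-KH, 16.6, 14.6 and 18.1 in E797R and 17.5, 17.7 and 18.9 in WT. In CLIP, K498A, DE636AA and R843C every siUPF1 library lay above every siNT library, while in A546H, GA-KH, E797R and WT the groups overlapped. On the log2 scale, ERN1 stood at 1.13 for CLIP, 0.56 for K498A, 0.43 for DE636AA, 0.45 for R843C, -0.03 for A546H, 0.02 for GA-KH, -0.03 for E797R and 0.02 for WT (SE 0.13 to 0.14). It was called in the first 4 lines, with an edgeR adjusted p of 6.16e-09 for CLIP, 0.00101 for K498A, 0.0109 for DE636AA and 0.0077 for R843C. The ERN1 calls were lost in DE636AA without siUPF1 replicate 3 or siNT replicate 1 (adjusted p up to 0.108) and R843C without siUPF1 replicate 3 or siNT replicate 1 (adjusted p up to 0.0678).

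ATF6 (ENSG00000118217.5), the sensor that becomes a transcription factor, changed less and in more lines. With siUPF1, ATF6 had 132, 89.6 and 117 CPM in CLIP, 97.5, 97.6 and 84.3 in K498A, 94.4, 97.8 and 85.8 in DE636AA, 125, 119 and 116 in R843C, 114, 109.5 and 104 in A546H, 98, 91.6 and 89.1 in GA-KH, 106, 94.3 and 94.9 in E797R and 105, 104 and 86.5 in WT. With siNT, ATF6 had 85.1, 84.5 and 82.5 CPM in CLIP, 84, 78.1 and 69.2 in K498A, 79.2, 79.7 and 74.7 in DE636AA, 88.1, 84.3 and 83 in R843C, 82.4, 81 and 73.4 in A546H, 82.5, 84.3 and 78.5 in GA-KH, 82.8, 80 and 80.7 in E797R and 85.6, 82 and 80.6 in WT. Its siUPF1 libraries lay above its siNT libraries in all 8 lines, and replicate 2 was the lowest of the 3 in CLIP. In log2 units, siUPF1 over siNT for ATF6 was 0.42 for CLIP, 0.27 for K498A, 0.25 for DE636AA, 0.49 for R843C, 0.47 for A546H, 0.18 for GA-KH, 0.28 for E797R and 0.25 for WT (SE 0.09 in each). By edgeR, the adjusted p was 0.00014 for CLIP, 0.0161 for K498A, 0.0258 for DE636AA, 3.08e-05 for R843C, 6.91e-05 for A546H, 0.0166 for E797R and 0.0319 for WT, and GA-KH was not called (adjusted p = 0.122). Its calls were lost in K498A without siUPF1 replicate 1 or 2 or siNT replicate 3 (adjusted p up to 0.127), DE636AA without siUPF1 replicate 1 or 2 or siNT replicate 3 (adjusted p up to 0.0994), E797R without siUPF1 replicate 1 or siNT replicate 2 (adjusted p up to 0.123) and WT without siUPF1 replicate 1 or 2 or siNT replicate 2 or 3 (adjusted p up to 0.16). The same 4 calls were lost with no filter on low counts, and those of CLIP and WT in a model of only the groups compared.

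EIF2AK3 (ENSG00000172071.7), which encodes PERK, rose in CLIP, K498A and DE636AA. With siUPF1, EIF2AK3 had 21.9, 22.1 and 22.3 CPM in CLIP, 24.5, 24.6 and 22.7 in K498A, 27.4, 27.2 and 26.5 in DE636AA, 20.7, 22.6 and 21 in R843C, 19.5, 18.8 and 18.8 in A546H, 18.6, 18.9 and 18.3 in GA-KH, 21.5, 20.7 and 21.9 in E797R and 19.8, 20.9 and 18.9 in WT. With siNT, EIF2AK3 had 17.5, 19.8 and 19 CPM in CLIP, 19, 19.2 and 17 in K498A, 19.2, 21.8 and 16.4 in DE636AA, 19.9, 21.4 and 19.7 in R843C, 18.9, 19.8 and 16.3 in A546H, 18, 21 and 17.4 in GA-KH, 17.6, 21.2 and 19.3 in E797R and 19.3, 20 and 17.5 in WT. The groups were separate in CLIP, K498A and DE636AA and overlapped in the other 5 lines. For EIF2AK3, the fitted log2 fold change was 0.24 for CLIP, 0.38 for K498A, 0.50 for DE636AA, 0.08 for R843C, 0.06 for A546H, -0.02 for GA-KH, 0.14 for E797R and 0.07 for WT (SE 0.09 in each). Its edgeR adjusted p was 0.0221 for CLIP, 0.000601 for K498A and 1.42e-05 for DE636AA. The call was lost in CLIP without siUPF1 replicate 3 or siNT replicate 1 (adjusted p up to 0.107), with no filter on low counts, and in a model of only the groups compared.

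XBP1 (ENSG00000100219.12), the substrate of IRE1, whose promoter holds the ERSE printed above, changed most in DE636AA. With siUPF1, XBP1 had 190.3, 245 and 213 CPM in CLIP, 195, 191 and 195 in K498A, 227, 228 and 245 in DE636AA, 183, 186 and 174 in R843C, 171, 173 and 171 in A546H, 136, 136 and 144 in GA-KH, 179, 151 and 216 in E797R and 161, 167 and 194 in WT. With siNT, XBP1 had 129, 142 and 126 CPM in CLIP, 121, 115 and 122 in K498A, 121, 129 and 113 in DE636AA, 156, 166 and 159 in R843C, 154, 153 and 156 in A546H, 123, 131 and 136 in GA-KH, 136, 136 and 146 in E797R and 132, 139 and 137 in WT. The siUPF1 libraries lay above the siNT libraries in all 8 lines, by a small margin in E797R, R843C and A546H and by the least in GA-KH. In GA-KH the lowest siUPF1 library was at 136.2 CPM and the highest siNT library at 135.7 CPM. In E797R these were at 150.8 and 145.5 CPM. Fitted log2 fold changes of XBP1 were 0.71 for CLIP, 0.70 for K498A, 0.94 for DE636AA, 0.17 for R843C, 0.15 for A546H, 0.10 for GA-KH, 0.39 for E797R and 0.36 for WT (SE 0.08 to 0.09). Calls by edgeR had an adjusted p of 6.94e-09 for CLIP, 2.83e-08 for K498A, 3.36e-11 for DE636AA, 0.00042 for E797R and 0.00118 for WT. None of these 5 calls was lost without a single library, but the value in E797R was 0.22 without siUPF1 replicate 3, the library with 216 CPM. A model of only the groups compared called XBP1 higher in R843C as well (0.16, edgeR adjusted p = 0.0122). Counts per gene do not tell spliced from unspliced XBP1.

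TBL2 (ENSG00000106638.11), a protein of the ER membrane known to bind PERK, rose in CLIP, DE636AA and R843C. With siUPF1, TBL2 had 60.8, 61.4 and 73 CPM in CLIP, 42.8, 45.5 and 47.5 in K498A, 49.1, 45.4 and 50.7 in DE636AA, 50.9, 52.5 and 55.2 in R843C, 48.9, 52.8 and 52.1 in A546H, 38, 36.1 and 41.8 in GA-KH, 37.6, 35.6 and 43.9 in E797R and 39.9, 39.9 and 39.8 in WT. With siNT, TBL2 had 42.4, 42.7 and 41.5 CPM in CLIP, 38.6, 41.7 and 39 in K498A, 42.3, 42.1 and 37.2 in DE636AA, 40.2, 44.7 and 40.6 in R843C, 46.4, 42.8 and 47.7 in A546H, 41.3, 40.4 and 42.4 in GA-KH, 43.5, 40.9 and 39.3 in E797R and 40, 42.2 and 41.2 in WT. The groups did not overlap in CLIP, K498A, DE636AA, R843C and A546H, with siUPF1 higher, nor in WT, with siUPF1 lower. They overlapped in GA-KH and E797R. The 3 CLIP siUPF1 libraries stood above all other libraries of the series. TBL2 had a log2 fold change of 0.63 for CLIP, 0.19 for K498A, 0.26 for DE636AA, 0.34 for R843C, 0.17 for A546H, -0.10 for GA-KH, -0.08 for E797R and -0.05 for WT (SE 0.08 in each). Adjusted p from edgeR was 7.73e-09 for CLIP, 0.00703 for DE636AA and 0.000466 for R843C. The call was lost in DE636AA without siNT replicate 3 (adjusted p up to 0.0708) and there with no filter on low counts. With a replicate block, a term for replicate number common to all lines, K498A was called as well (0.18, adjusted p = 0.0387).

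**Figure D2:**
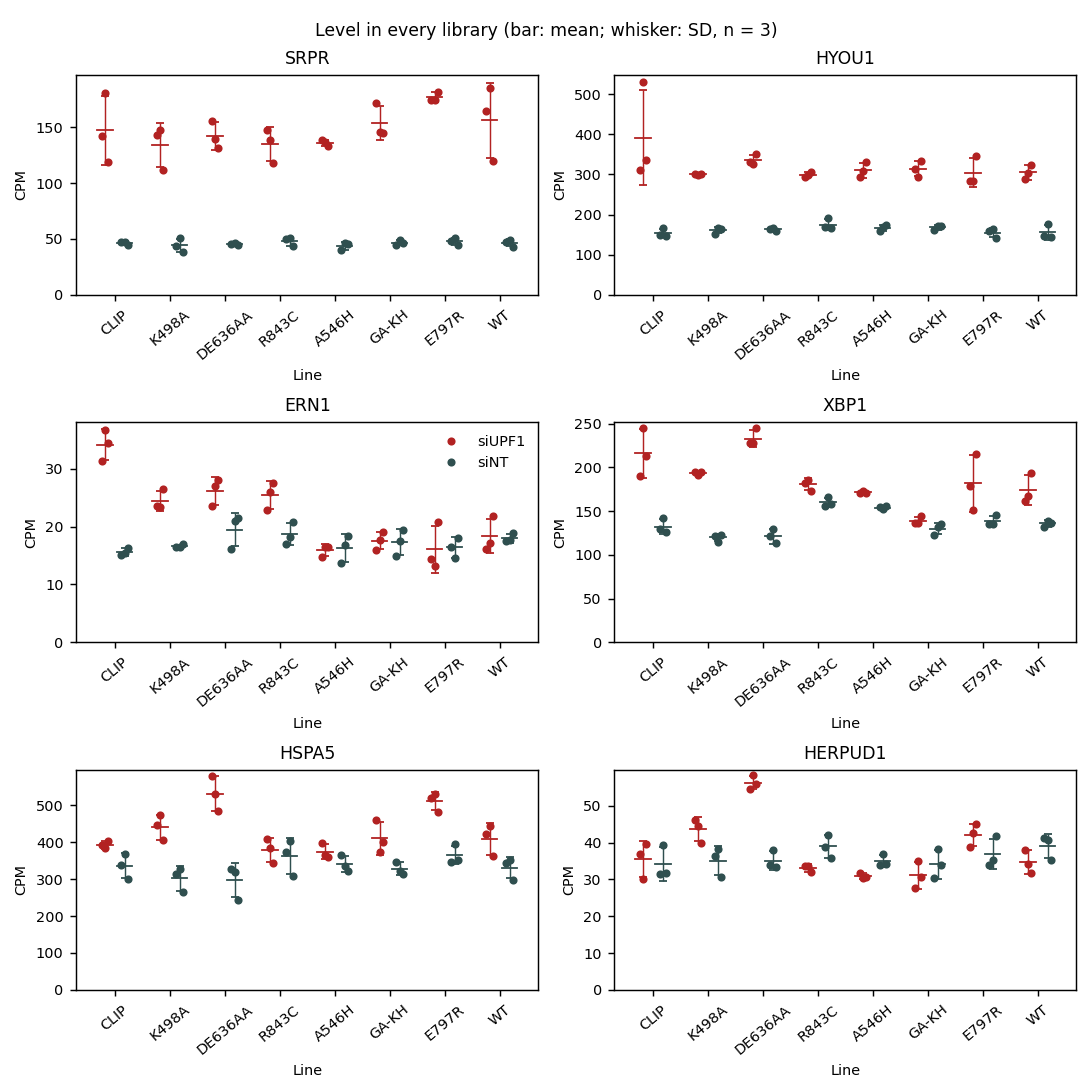
Levels in CPM (linear axes from 0) of 6 genes in each library, by line, with siUPF1 in red left of siNT in dark grey; the bar is the mean and the whisker the SD of 3 libraries. SRPR and HYOU1 separate in every line, ERN1 in CLIP, K498A, DE636AA and R843C, and the highest HERPUD1 levels are those of DE636AA with siUPF1.

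Of the 12 chaperones and co-chaperones, 3 rose and 1 fell in CLIP (3 and 0 without siUPF1 replicate 2), 4 rose and 2 fell in K498A, and 5 rose and 2 fell in DE636AA. In R843C and A546H 2 rose, in GA-KH 4, and in E797R and WT 5. The share called was below that of all genes in CLIP (33.3% against 47.4%), R843C (16.7% against 32.5%) and A546H (16.7% against 32.2%). It was above that of all genes in the other lines. Among the chaperones, HYOU1 and DNAJB9 changed in most lines, HSPA5 in 5, and HSP90B1 and DNAJC3 in none in the 16-group edgeR model. HYOU1 (ENSG00000149428.14) encodes a large HSP70-like chaperone that acts as nucleotide exchange factor of BiP, and carries ERSE-II at both places printed above. With siUPF1, HYOU1 had 312, 529 and 336 CPM in CLIP, 301, 299 and 300.3 in K498A, 331, 326 and 351 in DE636AA, 293, 298 and 306 in R843C, 293, 308 and 330.1 in A546H, 314, 295 and 333 in GA-KH, 283, 283 and 346 in E797R and 288, 304 and 324 in WT. With siNT, HYOU1 had 149.7, 166 and 147 CPM in CLIP, 152, 168 and 165 in K498A, 163, 166 and 160.1 in DE636AA, 169, 191 and 165 in R843C, 158, 170.0 and 174 in A546H, 160.2, 171 and 172 in GA-KH, 159, 165 and 142 in E797R and 147, 178 and 144 in WT. No siUPF1 library of any line came below 283 CPM and no siNT library above 191 CPM. On the log2 scale, HYOU1 stood at 1.35 for CLIP, 0.90 for K498A, 1.04 for DE636AA, 0.77 for R843C, 0.89 for A546H, 0.91 for GA-KH, 0.97 for E797R and 0.97 for WT (SE 0.11 in each). The edgeR adjusted p was 1.36e-12 for CLIP, 4.74e-08 for K498A, 1.75e-09 for DE636AA, 7.17e-07 for R843C, 4.77e-08 for A546H, 4.24e-08 for GA-KH, 1.04e-08 for E797R and 1.26e-08 for WT. Without CLIP siUPF1 replicate 2, the library with 529 CPM, the value in CLIP was 1.06.

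HSPA5 (ENSG00000044574.7) encodes BiP, the HSP70 of the ER, which binds unfolded chains and the sensors. With siUPF1, HSPA5 had 392, 384 and 404 CPM in CLIP, 446, 473 and 405 in K498A, 580.1, 529.5 and 486 in DE636AA, 409, 385 and 345 in R843C, 397, 364 and 360.4 in A546H, 461, 373 and 400.0 in GA-KH, 519, 530.0 and 483 in E797R and 421, 444 and 362 in WT. With siNT, HSPA5 had 339, 369 and 301 CPM in CLIP, 314, 329 and 264 in K498A, 327, 320.2 and 244 in DE636AA, 372, 404 and 309 in R843C, 365, 336 and 321 in A546H, 347, 321 and 314 in GA-KH, 348, 394 and 353 in E797R and 344, 351 and 298 in WT. The groups were separate in CLIP, K498A, DE636AA, GA-KH, E797R and WT, and overlapped in R843C and A546H. In log2 units, siUPF1 over siNT for HSPA5 was 0.23 for CLIP, 0.55 for K498A, 0.84 for DE636AA, 0.07 for R843C, 0.13 for A546H, 0.33 for GA-KH, 0.49 for E797R and 0.31 for WT (SE 0.11 in each). By edgeR, the adjusted p was 9.65e-05 for K498A, 6.95e-08 for DE636AA, 0.0173 for GA-KH, 0.000466 for E797R and 0.0279 for WT, and CLIP was not called (adjusted p = 0.0773). HSPA5 was called in CLIP without siNT replicate 2 (0.30, edgeR adjusted p = 0.0414) and with a replicate block (0.23, adjusted p = 0.00973). Calls were lost in GA-KH without siUPF1 replicate 1 or siNT replicate 2 or 3 (adjusted p up to 0.188) and WT without siUPF1 replicate 1 or 2 or siNT replicate 3 (adjusted p up to 0.161), and in WT also in a model of only the groups compared.

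HSP90B1 (ENSG00000166598.8), the ER form of HSP90, was called in no line by the 16-group edgeR model, and its promoter holds ERSE at 2 places. With siUPF1, HSP90B1 had 1439, 1052 and 1444 CPM in CLIP, 1500, 1466 and 1363 in K498A, 1501, 1558 and 1378 in DE636AA, 1465, 1350 and 1356 in R843C, 1427, 1359 and 1288 in A546H, 1546, 1499 and 1468 in GA-KH, 1730, 1643 and 1521 in E797R and 1596, 1626 and 1258 in WT. With siNT, HSP90B1 had 1520, 1588 and 1491 CPM in CLIP, 1657, 1562 and 1451 in K498A, 1593, 1639 and 1368 in DE636AA, 1668, 1548 and 1519 in R843C, 1585, 1471 and 1244 in A546H, 1561, 1583 and 1395 in GA-KH, 1479, 1620 and 1587 in E797R and 1530, 1577 and 1483 in WT. The groups overlapped in K498A, DE636AA, A546H, GA-KH, E797R and WT, and in CLIP and R843C each siUPF1 library was below each siNT library. For HSP90B1, the fitted log2 fold change was -0.23 for CLIP, -0.11 for K498A, -0.05 for DE636AA, -0.18 for R843C, -0.08 for A546H, -0.01 for GA-KH, 0.06 for E797R and -0.04 for WT (SE 0.10 in each), with the smallest edgeR adjusted p in CLIP, 0.0513. DESeq2 called it lower in CLIP (-0.22, adjusted p = 0.0451), as did edgeR without CLIP siUPF1 replicate 1 or 3 (-0.29 and -0.30), and it was -0.10 there without replicate 2. A model of only the groups compared called it lower in R843C.

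DNAJB9 (ENSG00000128590.4), a co-chaperone of BiP known as a target of XBP1, had the largest change among the chaperones, in DE636AA. With siUPF1, DNAJB9 had 25.8, 10.8 and 19 CPM in CLIP, 31.5, 34.3 and 20.5 in K498A, 42.3, 36.3 and 24.4 in DE636AA, 26.2, 22.8 and 17.7 in R843C, 20.9, 19.1 and 14.7 in A546H, 24.2, 23.2 and 18.3 in GA-KH, 25.4, 28.6 and 19 in E797R and 24.8, 22.9 and 14.2 in WT. With siNT, DNAJB9 had 11.4, 13.2 and 11.1 CPM in CLIP, 13.9, 12.7 and 9.8 in K498A, 12.4, 14.1 and 9.88 in DE636AA, 15, 14.9 and 12.1 in R843C, 10.8, 12.9 and 8.94 in A546H, 9.62, 13.6 and 10.6 in GA-KH, 11.1, 13.7 and 13.9 in E797R and 14.2, 13.8 and 12.9 in WT. The groups were separate in all lines but CLIP, where replicate 2 with siUPF1 was below each siNT library, and WT. For DNAJB9, the fitted log2 fold change was 0.64 for CLIP, 1.25 for K498A, 1.51 for DE636AA, 0.67 for R843C, 0.74 for A546H, 0.95 for GA-KH, 0.92 for E797R and 0.61 for WT (SE 0.23 to 0.24). Its edgeR adjusted p was 0.0241 for CLIP, 5.99e-05 for K498A, 3.27e-06 for DE636AA, 0.025 for R843C, 0.0151 for A546H, 0.00194 for GA-KH and 0.00245 for E797R, and WT was not called in the 16-group edgeR model (adjusted p = 0.0511), though RLE size factors, DESeq2, no filter, a replicate block and a model of only the groups compared each called it (0.58 to 0.60, adjusted p of 0.000103 to 0.0483). Leaving out 1 library at a time, WT was called only without siUPF1 replicate 3 (0.78). Calls were lost in CLIP without siUPF1 replicate 1 or siNT replicate 1 or 3 (adjusted p up to 0.264), R843C without siUPF1 replicate 1 or 2 or siNT replicate 3 (adjusted p up to 0.138) and A546H without siUPF1 replicate 1 or siNT replicate 3 (adjusted p up to 0.0827). Without CLIP siUPF1 replicate 2 the value in CLIP was 0.90 (adjusted p = 0.00158). The exons of DNAJB9 overlap those of THAP5 and PNPLA8 on the other strand, both with more counts than DNAJB9, and the strand setting of the counting is not given in the sources used here, so its counts are uncertain. THAP5 was called lower in CLIP (log2 fold change -0.65), and PNPLA8 was called higher in K498A (0.46), DE636AA (0.53) and A546H (0.46).

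The remaining chaperones were less uniform. SDF2L1, part of a complex with DNAJB11, rose in CLIP, K498A, DE636AA, E797R and WT by 0.38, 0.65, 0.83, 0.48 and 0.62 on the log2 scale. The CLIP call was lost without siUPF1 replicate 2, when the value was 0.08 (edgeR adjusted p = 0.673), and without siNT replicate 2 or 3. In WT the adjusted p was 0.0516 without siUPF1 replicate 3. The lectin chaperone CALR rose in GA-KH, E797R and WT by 0.28, 0.36 and 0.40. Of these, GA-KH was lost without siUPF1 replicate 1 or 3 or siNT replicate 2 (edgeR adjusted p up to 0.399) and E797R without siNT replicate 3 (0.0612). CRELD2, a secreted ER stress protein, was called in WT at 0.53 (0.203 without siUPF1 replicate 3), and MANF, a secreted factor, in DE636AA at 0.25 (up to 0.238 without a single library, siUPF1 replicate 1 or 2 or siNT replicate 2 or 3). The calls of CALR in GA-KH and of MANF were also lost with no filter on low counts and in a model of only the groups compared. Exons of CRELD2 overlap ALG12 on the other strand, whose mean count was 61.4% of that of CRELD2, so its counts are uncertain. ALG12 was called higher in CLIP (0.53) and lower in WT (-0.25) and GA-KH (-0.27).

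CANX, the membrane-bound lectin chaperone with the ERSE printed above, fell in K498A and DE636AA. Its levels were 1005, 997 and 945 CPM with siUPF1 against 1217, 1221 and 1133 CPM with siNT in K498A, and 995, 971 and 943 CPM with siUPF1 against 1206, 1184 and 1061 CPM with siNT in DE636AA. The log2 fold changes were -0.28 and -0.25 (SE 0.06 each, edgeR adjusted p = 0.000673 and 0.00214), and the other 6 lines were not called in that model. In CLIP the value was 0.14 (adjusted p = 0.07), called higher with RLE size factors and by DESeq2, and 0.20 without siUPF1 replicate 2 (edgeR adjusted p = 0.00798). The DE636AA call of CANX was lost with no filter on low counts. DNAJC10, a disulfide reductase of the J-protein family, was called lower in the same pair of lines at -0.34 each (SE 0.13). Those calls were lost in K498A without siUPF1 replicate 1 or 3 or siNT replicate 1 or 2 (adjusted p up to 0.101) and in DE636AA without siUPF1 replicate 3 or siNT replicate 1 or 2 (0.16). DNAJB11, a co-chaperone of BiP, was called lower in CLIP at -0.38, which became -0.22 (0.191) without siUPF1 replicate 2 and was also lost without siNT replicate 2. DNAJC3, an inhibitor of PERK, had log2 fold changes from -0.03 to 0.31 and was called in no line by the 16-group edgeR model, but its DE636AA value was called by DESeq2, with no filter and in a model of only the groups compared.

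Of the 4 genes of oxidative folding, 1 rose in CLIP and in K498A, 2 in R843C and A546H, and 3 in DE636AA, GA-KH, E797R and WT. In CLIP 3 rose without siUPF1 replicate 2. With all libraries the share called was below that of all genes in CLIP (25% against 47.4%) and K498A (25% against 32.7%), and above it elsewhere. P4HB, the gene of protein disulfide isomerase, rose in 7 lines. With siUPF1, P4HB (ENSG00000185624.10) had 591, 770.3 and 625 CPM in CLIP, 566, 568 and 545 in K498A, 581, 543 and 598 in DE636AA, 577, 564 and 554 in R843C, 485, 485 and 516 in A546H, 521, 433 and 504 in GA-KH, 531, 521 and 614 in E797R and 514, 549 and 498.3 in WT. With siNT, P4HB had 429.7, 427 and 413 CPM in CLIP, 403, 433 and 404 in K498A, 439, 422 and 399.7 in DE636AA, 463, 464 and 416 in R843C, 428, 409.9 and 467 in A546H, 416, 387 and 435 in GA-KH, 432, 427 and 400.0 in E797R and 398, 427 and 389 in WT. The groups were separate in every line but GA-KH, where the lowest siUPF1 library, at 433 CPM, was below the highest siNT library, at 435 CPM. Fitted log2 fold changes of P4HB were 0.65 for CLIP, 0.44 for K498A, 0.45 for DE636AA, 0.34 for R843C, 0.19 for A546H, 0.24 for GA-KH, 0.40 for E797R and 0.36 for WT (SE 0.08 in each). Calls by edgeR had an adjusted p of 9.54e-09 for CLIP, 2.74e-05 for K498A, 1.62e-05 for DE636AA, 0.000747 for R843C, 0.0203 for GA-KH, 8.98e-05 for E797R and 0.000414 for WT, and A546H was not called (adjusted p = 0.0623). The call was lost in GA-KH without siUPF1 replicate 1 or 3 or siNT replicate 2 (adjusted p up to 0.215), with no filter on low counts and in a model of only the groups compared.

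PDIA6 and PDIA3, isomerases of the same family, had their highest fold changes in E797R. With siUPF1, PDIA6 (ENSG00000143870.8) had 257, 219 and 275 CPM in CLIP, 206, 208 and 195 in K498A, 223, 211 and 223 in DE636AA, 263, 259 and 255 in R843C, 271, 258 and 259 in A546H, 285, 252 and 271 in GA-KH, 301, 293 and 313 in E797R and 286, 301 and 250.4 in WT. With siNT, PDIA6 had 235, 233 and 231 CPM in CLIP, 221, 214 and 219.7 in K498A, 226, 221 and 207 in DE636AA, 241, 232 and 211 in R843C, 244, 207 and 238 in A546H, 228, 209.8 and 212 in GA-KH, 224, 233 and 222 in E797R and 216, 217 and 215 in WT. In K498A every siUPF1 library was below every siNT library and in CLIP and DE636AA the groups overlapped, while in R843C, A546H, GA-KH, E797R and WT the siUPF1 libraries lay above. PDIA6 had a log2 fold change of 0.11 for CLIP, -0.10 for K498A, 0.01 for DE636AA, 0.18 for R843C, 0.19 for A546H, 0.31 for GA-KH, 0.42 for E797R and 0.37 for WT (SE 0.07 in each). Adjusted p from edgeR was 0.04 for R843C, 0.0287 for A546H, 0.000574 for GA-KH, 9.03e-06 for E797R and 6.92e-05 for WT. Calls were lost in R843C without siUPF1 replicate 1, 2 or 3 or siNT replicate 2 or 3 (adjusted p up to 0.225) and A546H without siUPF1 replicate 1, 2 or 3 or siNT replicate 2 (adjusted p up to 0.223). Both were lost with no filter on low counts, R843C also with RLE size factors and A546H also in a model of only the groups compared.

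With siUPF1, PDIA3 (ENSG00000167004.8) had 349, 289 and 349 CPM in CLIP, 307, 337 and 294 in K498A, 349, 309 and 316 in DE636AA, 336, 319 and 299.9 in R843C, 359, 335 and 347 in A546H, 380.4, 335 and 360.2 in GA-KH, 411, 392 and 379 in E797R and 383, 381 and 308 in WT. With siNT, PDIA3 had 296, 299 and 283 CPM in CLIP, 278, 289 and 262 in K498A, 299, 258 and 245 in DE636AA, 303, 304 and 268 in R843C, 315, 285 and 299 in A546H, 309, 261 and 285 in GA-KH, 304, 311 and 298 in E797R and 287, 281 and 275 in WT. The groups overlapped in CLIP and R843C and were separate in the other lines. On the log2 scale, PDIA3 stood at 0.17 for CLIP, 0.18 for K498A, 0.28 for DE636AA, 0.13 for R843C, 0.21 for A546H, 0.33 for GA-KH, 0.37 for E797R and 0.35 for WT (SE 0.08 in each). The edgeR adjusted p was 0.00742 for DE636AA, 0.049 for A546H, 0.00214 for GA-KH, 0.000545 for E797R and 0.00133 for WT. With a replicate block K498A (0.18, adjusted p = 0.0406) and CLIP (0.17, adjusted p = 0.0473) were also called by edgeR. Calls were lost in DE636AA without siUPF1 replicate 1 or siNT replicate 3 (adjusted p up to 0.0686) and A546H without siUPF1 replicate 1, 2 or 3 or siNT replicate 1, 2 or 3 (adjusted p up to 0.178), and in A546H also with RLE size factors, with no filter and in a model of only the groups compared. PDIA4, another isomerase, was called in DE636AA (0.20) and lost there without siUPF1 replicate 1 or 3 or siNT replicate 2 or 3 (adjusted p up to 0.114), with no filter and in a model of only the groups compared. Leaving out CLIP siUPF1 replicate 2, PDIA3 (0.24, adjusted p = 0.0165) and PDIA6 (0.19, 0.0218) were called in CLIP as well.

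Of the 9 genes of ER-associated decay, 5 rose in CLIP (7 without siUPF1 replicate 2), K498A and DE636AA, 4 in R843C, A546H and E797R, and 3 in GA-KH and WT. The share called was above that of all genes in each line, among them CLIP (55.6% against 47.4%) and GA-KH (33.3% against 28.3%). SYVN1 and EDEM2 were among the 4 members that rose in all 8 lines. SYVN1 (ENSG00000162298.12) encodes HRD1, the ubiquitin ligase of this pathway. With siUPF1, SYVN1 had 27.1, 38.4 and 24.3 CPM in CLIP, 24.4, 26.2 and 24.1 in K498A, 28.4, 27.4 and 28.9 in DE636AA, 23.5, 24.7 and 22.3 in R843C, 22.9, 24.4 and 23.5 in A546H, 24.4, 23.1 and 23 in GA-KH, 28.4, 30.3 and 29.5 in E797R and 25.2, 26.8 and 24.6 in WT. With siNT, SYVN1 had 15.9, 17.1 and 15.1 CPM in CLIP, 14.6, 17.1 and 14.4 in K498A, 16, 17.8 and 16.8 in DE636AA, 15.7, 17.6 and 16.9 in R843C, 14.8, 15.6 and 17.3 in A546H, 17.7, 17 and 17.9 in GA-KH, 17.9, 18.8 and 17.5 in E797R and 16, 18.5 and 15 in WT. All siUPF1 libraries, at 22.3 CPM or more, lay above all siNT libraries, at 18.8 CPM or less. In log2 units, siUPF1 over siNT for SYVN1 was 0.90 for CLIP, 0.70 for K498A, 0.75 for DE636AA, 0.49 for R843C, 0.57 for A546H, 0.42 for GA-KH, 0.70 for E797R and 0.63 for WT (SE 0.10 in each). By edgeR, the adjusted p was 1.72e-09 for CLIP, 7.91e-07 for K498A, 1.97e-07 for DE636AA, 0.000165 for R843C, 2.46e-05 for A546H, 0.00118 for GA-KH, 6.36e-07 for E797R and 6.32e-06 for WT. In CLIP it was 0.67 without siUPF1 replicate 2. Exons of SYVN1 overlap the more highly counted FAU on the same strand and MRPL49 on the other, so its counts are uncertain. FAU was called in no line, and MRPL49 was called higher in CLIP and R843C and lower in GA-KH and E797R.

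EDEM2 (ENSG00000088298.8) takes part in trimming the mannose residues that mark glycoproteins for decay. With siUPF1, EDEM2 had 20.9, 19.1 and 22.4 CPM in CLIP, 16.3, 15 and 15.5 in K498A, 14.4, 16.5 and 17.7 in DE636AA, 14.2, 15.7 and 17.3 in R843C, 12.5, 16.7 and 15.2 in A546H, 11.2, 13.8 and 13.2 in GA-KH, 13, 13.4 and 15.3 in E797R and 13.7, 12.1 and 13.5 in WT. With siNT, EDEM2 had 9.88, 10.1 and 9.75 CPM in CLIP, 10.2, 10.5 and 10.1 in K498A, 10, 10.2 and 10.2 in DE636AA, 11.3, 10.6 and 11.5 in R843C, 10.8, 9.11 and 12.2 in A546H, 9.62, 8.89 and 10.5 in GA-KH, 9.77, 9.2 and 10.9 in E797R and 10.8, 9.56 and 10.4 in WT. The groups were separate in all 8 lines, by the least in A546H and GA-KH, and the 3 highest values were those of CLIP. For EDEM2, the fitted log2 fold change was 1.07 for CLIP, 0.61 for K498A, 0.67 for DE636AA, 0.50 for R843C, 0.47 for A546H, 0.40 for GA-KH, 0.48 for E797R and 0.35 for WT (SE 0.10 to 0.11). Its edgeR adjusted p was 6.81e-11 for CLIP, 1.5e-05 for K498A, 2.81e-06 for DE636AA, 0.00022 for R843C, 0.000619 for A546H, 0.00352 for GA-KH, 0.000469 for E797R and 0.0101 for WT. Calls were lost in GA-KH without siUPF1 replicate 2 (adjusted p up to 0.053) and WT without siUPF1 replicate 1 or 3 or siNT replicate 2 (adjusted p up to 0.0646), and in both lines with no filter on low counts.

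EDEM1 (ENSG00000134109.6), of the same family, had its highest fold change in CLIP. With siUPF1, EDEM1 had 77.4, 67.1 and 65.4 CPM in CLIP, 53.8, 54 and 47.2 in K498A, 52.1, 48.5 and 47.1 in DE636AA, 70.6, 67.5 and 59.9 in R843C, 61.4, 57.7 and 54.4 in A546H, 47.2, 50.5 and 44.8 in GA-KH, 54.9, 56.4 and 48.6 in E797R and 50.3, 51.1 and 46.7 in WT. With siNT, EDEM1 had 41.7, 45.1 and 43.6 CPM in CLIP, 41.9, 40.3 and 38.2 in K498A, 41.3, 41 and 36.6 in DE636AA, 50.1, 51.8 and 48.2 in R843C, 47.9, 49.4 and 45.6 in A546H, 45.2, 43.4 and 43.5 in GA-KH, 44.5, 44.1 and 41.7 in E797R and 43.9, 44 and 42.9 in WT. The groups overlapped in GA-KH alone. Fitted log2 fold changes of EDEM1 were 0.69 for CLIP, 0.37 for K498A, 0.31 for DE636AA, 0.40 for R843C, 0.28 for A546H, 0.11 for GA-KH, 0.30 for E797R and 0.18 for WT (SE 0.07 in each). Calls by edgeR had an adjusted p of 6.85e-10 for CLIP, 0.000141 for K498A, 0.000901 for DE636AA, 3.72e-05 for R843C, 0.00305 for A546H and 0.0018 for E797R, and 2 of these calls, A546H and E797R, were lost with no filter on low counts. DESeq2 called WT as well.

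HERPUD1, a membrane protein that organises the HRD1 complex and carries the ERSE-II printed above, changed in the lines with altered ATP motifs. Its levels were 46.3, 44.6 and 40 CPM with siUPF1 against 36.3, 38.3 and 30.8 CPM with siNT in K498A, and 54.7, 58.3 and 55.9 CPM with siUPF1 against 34, 38.1 and 33.3 CPM with siNT in DE636AA. Both pairs of groups were separate. The log2 fold changes were 0.31 (SE 0.11, edgeR adjusted p = 0.02) and 0.68 (SE 0.11, adjusted p = 2.76e-06). The K498A call was lost without siUPF1 replicate 1 or 2 or siNT replicate 3 (adjusted p up to 0.146). In WT, HERPUD1 was at 38.1, 34.1 and 31.7 CPM with siUPF1 against 41.2, 40.8 and 35.2 CPM with siNT, and its log2 fold change of -0.17 was not called. The siUPF1 libraries of R843C and A546H also lay below their siNT libraries, with uncalled log2 fold changes of -0.24 and -0.18.

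SEL1L, the partner of HRD1, rose in CLIP, R843C, A546H, GA-KH, E797R and WT by 0.34, 0.34, 0.49, 0.26, 0.38 and 0.27, and was at -0.03 in K498A and 0.05 in DE636AA, where it was not called. The calls in GA-KH (without siUPF1 replicate 1 or 3 or siNT replicate 2 or 3, adjusted p up to 0.159) and WT (without siUPF1 replicate 1 or 2 or siNT replicate 2, up to 0.0824) were lost without a single library and with no filter on low counts, and that in CLIP in a model of only the groups compared. VIMP, which links the extracting ATPase to the ER membrane, rose in CLIP (0.28), K498A (0.21) and DE636AA (0.34), of which K498A was lost without siUPF1 replicate 2 or 3 or siNT replicate 1 or 2 (edgeR adjusted p up to 0.163). The CLIP and K498A calls of VIMP were lost with no filter, and that in CLIP also in a model of only the groups compared. EDEM3, DERL1 and DERL2 were called in no line by the 16-group edgeR model, with log2 fold changes from -0.16 to 0.03, from -0.08 to 0.23 and from -0.08 to 0.22. A model of only the groups compared called DERL1 in A546H (0.23). In CLIP without siUPF1 replicate 2, DERL1 (0.18, edgeR adjusted p = 0.0235) and DERL2 (0.38, 0.0263) were called higher, DERL1 with the opposite sign to its value with that library (-0.08). Exons of DERL1 and DERL2 overlap TBC1D31 and MIS12 on the other strand, at 85.5% and 109% of their mean counts, so their counts are uncertain too.

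Of the 10 genes of translocation, 3 rose and 2 fell in CLIP (5 and 1 without siUPF1 replicate 2), 1 rose and 2 fell in K498A, and 2 rose and 2 fell in DE636AA. In R843C 1 rose, in A546H and GA-KH 2, in E797R 3 and in WT 5. The share called was below that of all genes in R843C (10% against 32.5%), A546H (20% against 32.2%) and GA-KH (20% against 28.3%). It was near it in CLIP, K498A and E797R, and above it in DE636AA (40% against 34.3%) and WT (50% against 27.2%). The largest change of all 40 genes was that of SRPR (ENSG00000182934.7), the alpha subunit of the receptor that docks ribosomes at the ER. With siUPF1, SRPR had 143, 180.3 and 119 CPM in CLIP, 143, 148 and 112 in K498A, 156, 139 and 132 in DE636AA, 148, 139 and 118 in R843C, 139, 137 and 133 in A546H, 172, 146 and 145 in GA-KH, 174, 174 and 182 in E797R and 164, 185 and 119.5 in WT. With siNT, SRPR had 47.2, 47.4 and 44.2 CPM in CLIP, 43.6, 50.5 and 38.1 in K498A, 45.6, 46.6 and 44.4 in DE636AA, 49.5, 50.7 and 43.3 in R843C, 39.9, 46.4 and 45.3 in A546H, 44.3, 48.8 and 46.5 in GA-KH, 48.3, 51 and 44.8 in E797R and 47.1, 49.4 and 42.9 in WT. Each of the 24 siUPF1 libraries, at 112 CPM or more, stood above each of the 24 siNT libraries, at 51 CPM or less. SRPR had a log2 fold change of 1.67 for CLIP, 1.60 for K498A, 1.64 for DE636AA, 1.49 for R843C, 1.64 for A546H, 1.73 for GA-KH, 1.88 for E797R and 1.75 for WT (SE 0.13 in each). Adjusted p from edgeR was 1.69e-13 for CLIP, 2.17e-12 for K498A, 1.09e-12 for DE636AA, 8.76e-12 for R843C, 1.16e-12 for A546H, 4.24e-13 for GA-KH, 4.34e-14 for E797R and 3.85e-13 for WT. Exons of SRPR overlap FOXRED1 and FAM118B on the other strand, whose mean counts were 22.1% and 8.36% of that of SRPR. FOXRED1 was called higher in 7 lines, by 0.30 to 0.88, all but A546H, and FAM118B in none.

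SRPRB, the beta subunit of the same receptor, was the single member called in both directions by the 16-group edgeR model. In CLIP it had 69.1, 80.3 and 76.2 CPM with siUPF1 against 54.7, 52.8 and 51.3 CPM with siNT. In WT it had 56.9, 63 and 52.3 CPM with siUPF1 against 46, 48.4 and 42.8 CPM with siNT. In both lines every siUPF1 library was above every siNT library. In K498A it had 35, 37 and 35.1 CPM with siUPF1 against 44.4, 45.1 and 43.8 CPM with siNT. In DE636AA it had 34.7, 32.8 and 34.6 CPM with siUPF1 against 45.3, 38.8 and 40.7 CPM with siNT. In these lines every siUPF1 library was below every siNT library. The log2 fold changes were 0.51 in CLIP (edgeR adjusted p = 1.13e-06), -0.32 in K498A (0.00167), -0.29 in DE636AA (0.00379) and 0.33 in WT (0.00139), with an SE of 0.08 each. The E797R value of 0.21 (0.0372) was lost without 5 of the 6 libraries one at a time, siNT replicate 2 being the exception (adjusted p up to 0.158), and the DE636AA call was lost with no filter on low counts. SRPRB overlaps RAB6B on the other strand, which was called in no line.

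SEC61G (ENSG00000132432.9), the gamma subunit of the channel, fell in CLIP, K498A and DE636AA. With siUPF1, SEC61G had 46.6, 13.4 and 48.6 CPM in CLIP, 26.5, 27.8 and 25.3 in K498A, 25.4, 24.9 and 21.8 in DE636AA, 48.7, 43.5 and 41.6 in R843C, 58.2, 41.7 and 47.6 in A546H, 55.8, 42.3 and 47 in GA-KH, 40.3, 33.7 and 35 in E797R and 43.6, 44.2 and 43.6 in WT. With siNT, SEC61G had 49.5, 49.8 and 54.3 CPM in CLIP, 50.7, 42.6 and 44 in K498A, 42.7, 42.1 and 34.1 in DE636AA, 56, 50.6 and 51.4 in R843C, 62.2, 44.4 and 52.4 in A546H, 52.9, 41 and 46.5 in GA-KH, 46.2, 42.3 and 41.9 in E797R and 45.5, 44.7 and 47.9 in WT. In K498A and DE636AA the groups did not overlap, and in CLIP replicates 1 and 3 were just below the siNT libraries while replicate 2 was much lower. R843C, E797R and WT also had each siUPF1 library below each siNT library, without a call. On the log2 scale, SEC61G stood at -0.49 for CLIP, -0.79 for K498A, -0.72 for DE636AA, -0.24 for R843C, -0.11 for A546H, 0.05 for GA-KH, -0.26 for E797R and -0.07 for WT (SE 0.21 in each). The edgeR adjusted p was 0.0493 for CLIP, 0.00319 for K498A and 0.00679 for DE636AA. The call was lost in CLIP without siUPF1 replicate 2 or siNT replicate 1, 2 or 3 (adjusted p up to 0.501), with a value of -0.11 without siUPF1 replicate 2.

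SEC62 (ENSG00000008952.12), which helps post-translational entry into the channel, was called in CLIP alone. With siUPF1, SEC62 had 169, 91 and 149 CPM in CLIP, 183, 189 and 165 in K498A, 198, 187 and 165 in DE636AA, 182, 172 and 170.1 in R843C, 189, 166 and 153 in A546H, 205, 182 and 178 in GA-KH, 194, 187 and 163 in E797R and 190.2, 191 and 143 in WT. With siNT, SEC62 had 196, 203 and 194 CPM in CLIP, 181, 179.9 and 154 in K498A, 185, 170.3 and 148 in DE636AA, 212, 195 and 187 in R843C, 213, 185 and 142 in A546H, 204, 191 and 166 in GA-KH, 189, 201 and 181 in E797R and 186, 183 and 176 in WT. The CLIP siUPF1 libraries were below the siNT libraries, with replicate 2 the lowest of the series. Those of R843C were below theirs without a call in that model. In log2 units, siUPF1 over siNT for SEC62 was -0.54 for CLIP, 0.06 for K498A, 0.13 for DE636AA, -0.18 for R843C, -0.09 for A546H, 0.01 for GA-KH, -0.07 for E797R and -0.06 for WT (SE 0.14 in each). The edgeR adjusted p in CLIP was 0.0016, and without siUPF1 replicate 2 the value was -0.33 (adjusted p = 0.0284). The CLIP call was lost in a model of only the groups compared, which called SEC62 lower in R843C (-0.20, edgeR adjusted p = 0.00684).

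Of the other channel and TRAP genes, SSR1 (TRAP alpha) rose in A546H, GA-KH, E797R and WT by 0.37, 0.40, 0.38 and 0.37 and was at -0.16 in K498A and -0.21 in DE636AA, neither called. Without CLIP siUPF1 replicate 2, SSR1 was at 0.37 (edgeR adjusted p = 0.00517) and SSR3 at 0.24 (0.00357) in CLIP, both called, against 0.20 and 0.13 with that library, not called. Each of those 4 calls was lost without siUPF1 replicate 1 or siNT replicate 3, and in E797R and WT also without siUPF1 replicate 2 (edgeR adjusted p up to 0.128). SSR2 rose in CLIP (0.28) and DE636AA (0.23; adjusted p = 0.0608 without siNT replicate 2), SSR3 in WT (0.22; up to 0.263 without siUPF1 replicate 3 or siNT replicate 1 or 2) and SEC61B in WT (0.40; up to 0.129 without siUPF1 replicate 1 or 2 or siNT replicate 2 or 3). With no filter on low counts the calls of SSR2, SSR3 and SEC61B were lost, and those of SSR3 and SEC61B also in a model of only the groups compared. SEC61A1, the pore subunit, and SEC63 were called in no line by the 16-group edgeR model, with log2 fold changes from -0.11 to 0.18 and from -0.27 to 0.09. Exons of SEC61A1 overlap RUVBL1 on the other strand, at 126% of its mean count, so the counts of SEC61A1 are uncertain. SEC63 was called lower in CLIP (-0.27; -0.06 without siUPF1 replicate 2) with no filter, and in R843C (-0.14) in a model of only the groups compared.

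Across the lines, 4 of 40 members were called higher in all 8 (SRPR, HYOU1, SYVN1 and EDEM2), beside 5.75% of all genes, and 0 were called lower in all 8 by edgeR, beside 5.24%. The calls of SRPR, HYOU1 and SYVN1 held without each library in turn and under every other setting tried. Their log2 fold changes in WT were 1.75, 0.97 and 0.63, against 1.67, 1.35 and 0.9 in CLIP. None of these genes was called as different between the CLIP and WT responses. Whether the siRNA changed them apart from the loss of UPF1 was not tested. The 7 called in no line by the 16-group edgeR model were HSP90B1, DNAJC3, EDEM3, DERL1, DERL2, SEC61A1 and SEC63, beside 30.9% of all genes. Of these, each but EDEM3 was called in some line under another setting or without a single library. The E797R call of SRPRB was also lost with RLE size factors, with no filter on low counts and in a model of only the groups compared. Of the receptor's subunits, SRPR was called higher in 8 lines, and SRPRB was called higher in 3 and lower in 2, beside 2.85% of all genes called in both directions.

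The members with a promoter element did not move as 1 group. Of the 7 with ERSE, 1 was called higher in CLIP, 2 higher and 1 lower in K498A, 2 higher and 1 lower in DE636AA, 1 higher in R843C, 1 in A546H, 3 in GA-KH, 4 in E797R and 5 in WT. The median log2 fold change of these 7 was 0.21, -0.10, 0.00, 0.16, 0.13, 0.28, 0.36 and 0.36 in the same order of lines, so it was highest in E797R and WT and near 0 in DE636AA, where XBP1 and HSPA5 had their highest values. Of the 3 with ERSE-II, all 3 were called higher in K498A and DE636AA, 2 in CLIP, E797R and WT, and 1 in R843C, A546H and GA-KH. Their median was 0.38 for CLIP, 0.65 for K498A, 0.83 for DE636AA, 0.12 for R843C, 0.01 for A546H, 0.35 for GA-KH, 0.48 for E797R and 0.62 for WT. Of the 27 windows with neither, 13 genes were called higher in CLIP and DE636AA, 9 in K498A, R843C, E797R and WT, 7 in A546H and 6 in GA-KH, and 3 were called lower in each of CLIP, K498A and DE636AA. Of all genes, 25.1% were called higher in CLIP, 16.2% in K498A, 16.7% in DE636AA and 17.7% in R843C. The share higher was 17.2% in A546H, 14.5% in GA-KH, 16% in E797R and 14% in WT. Called lower were 22.3% in CLIP, 16.5% in K498A and 17.6% in DE636AA.

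**Figure D3:**
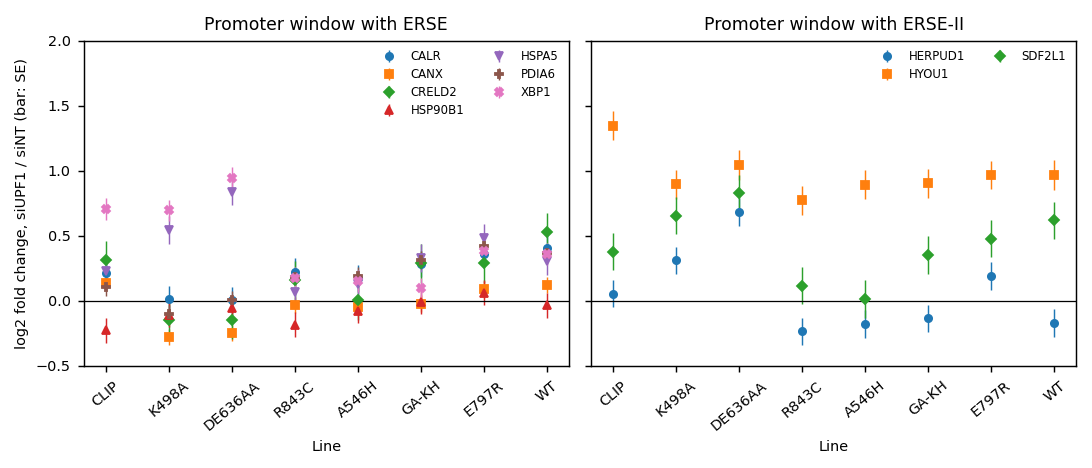
Log2 fold change (siUPF1 over siNT, linear axis, bar: SE) of the members with ERSE (left panel) and ERSE-II (right panel) in the 8 lines. In DE636AA, XBP1 (0.94) and HSPA5 (0.84) stand above the other ERSE genes, and the ERSE-II genes lie at 0.68 to 1.04, whereas in WT the ERSE genes lie between -0.04 and 0.53.

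The responses were then compared directly, as the difference of a line's log2 fold change from that of WT in the same model. All 7 of these comparisons share the WT libraries. In CLIP, 5 of 40 members responded more than in WT and 0 less, beside 11.9% of all genes called (8.08% higher, 3.77% lower). The response of ERN1 was higher by 1.10 (SE 0.19, edgeR adjusted p = 5.1e-05), that of EDEM2 by 0.72 (SE 0.15, adjusted p = 0.000652) and that of TBL2 by 0.67 (SE 0.11, adjusted p = 1.54e-05). EDEM1 (0.50, adjusted p = 0.000685) and XBP1 (0.35, adjusted p = 0.0474) were the others. At an unadjusted p under 0.05, 9 were higher and 3 lower, and without CLIP siUPF1 replicate 2 there were 6 higher and 0 lower, XBP1 no longer among them (0.26, edgeR adjusted p = 0.187). The XBP1 difference was also lost without CLIP siNT replicate 1 or 3, WT siUPF1 replicate 1 or 2, or any WT siNT library, with no filter on low counts, and in a model of only the groups compared, where EDEM1 was lost too.

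In K498A, 3 members responded less than in WT and 0 more, beside 3.26% of all genes (1.44% higher, 1.81% lower). SRPRB differed by -0.64 (SE 0.11, edgeR adjusted p = 0.000306), PDIA6 by -0.48 (SE 0.10, adjusted p = 0.0027) and CANX by -0.40 (SE 0.09, adjusted p = 0.00602). These 3 differences held without each library in turn, and those of PDIA6 and CANX were lost with no filter on low counts. At an unadjusted p under 0.05, 5 were higher and 9 lower, and DESeq2 called 1 higher and 4 lower. A replicate block called 2 higher (ERN1 and HERPUD1) and 5 lower, CRELD2 and SSR1 with the 3 above. In DE636AA, 4 members responded more and 4 less, beside 4.5% of all genes (1.78% higher, 2.72% lower). Those with a larger response were HERPUD1 by 0.85 (SE 0.15, adjusted p = 0.00029), XBP1 by 0.59 (SE 0.12, adjusted p = 0.00161), HSPA5 by 0.54 (SE 0.15, adjusted p = 0.03) and EIF2AK3 by 0.43 (SE 0.12, adjusted p = 0.0307). Those with a smaller response were SRPRB by -0.62 (SE 0.11, adjusted p = 0.000379), SSR1 by -0.58 (SE 0.17, adjusted p = 0.0452), CANX by -0.37 (SE 0.09, adjusted p = 0.00977) and PDIA6 by -0.36 (SE 0.10, adjusted p = 0.0221). At an unadjusted p under 0.05, 9 were higher and 8 lower.

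Of the DE636AA differences, HERPUD1, XBP1, SRPRB and CANX held without each library in turn. With no filter on low counts CANX and PDIA6 were lost in K498A and DE636AA and EIF2AK3 in DE636AA, and a model of only the groups compared lost those 3, HSPA5 and SSR1 in DE636AA. HSPA5 was lost without DE636AA siUPF1 replicate 1 or siNT replicate 3, or WT siUPF1 replicate 3 or siNT replicate 1 or 2 (edgeR adjusted p up to 0.137). The same libraries and DE636AA siNT replicate 1 each decided EIF2AK3 (up to 0.141). PDIA6 was lost without DE636AA siUPF1 replicate 2 or siNT replicate 1, WT siUPF1 replicate 1 or 2 or siNT replicate 2 (up to 0.0998), and SSR1 without 10 of the 12 libraries one at a time, with DE636AA siNT replicate 3 and WT siUPF1 replicate 3 the exceptions (up to 0.128). In R843C, TBL2 responded more by 0.38 (SE 0.11, adjusted p = 0.0468), beside 1.94% of all genes (1.68% higher), and this was lost without any library but R843C siNT replicate 2 (up to 0.161), with RLE size factors and with no filter. In A546H, GA-KH and E797R edgeR called 0 members, beside 0.298% (0.0418% lower), 0% and 0% of all genes, and DESeq2 called 0. At an unadjusted p under 0.05 there were 5, 1 and 1. The differences over the 40 members ran from -0.61 to 0.26 in A546H, from -0.27 to 0.35 in GA-KH and from -0.24 to 0.36 in E797R, with a median SE of 0.15 in each.

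**Figure D4:**
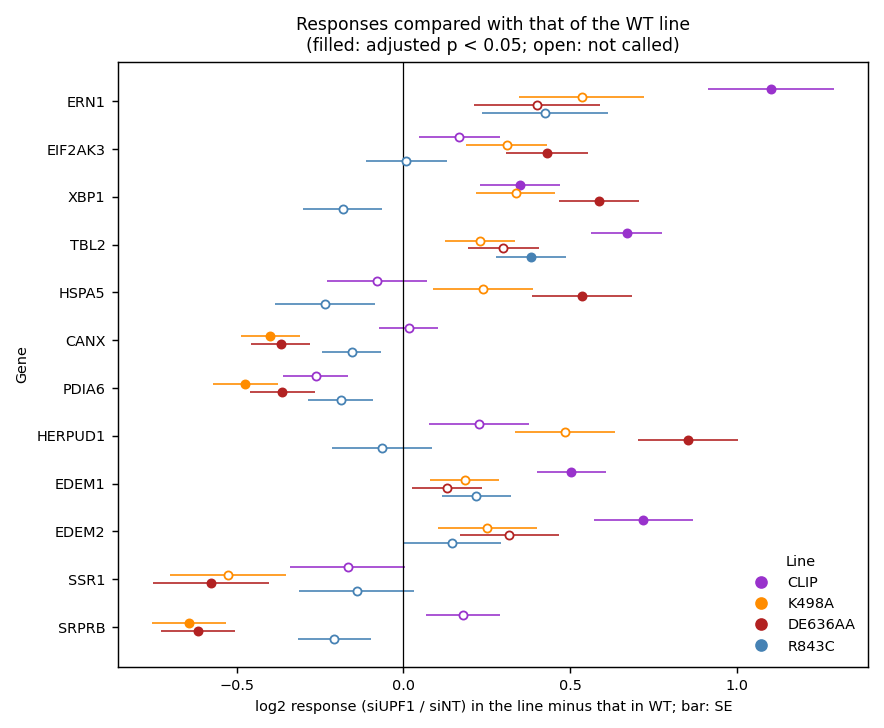
Difference of the log2 response (siUPF1 over siNT) from that in WT for the 12 members with a called difference, in CLIP, K498A, DE636AA and R843C; bars are the SE, filled points have an edgeR adjusted p under 0.05, and the line at 0 is the response in WT. ERN1, TBL2, EDEM1 and EDEM2 lie furthest right in CLIP, HERPUD1, XBP1 and HSPA5 in DE636AA, and SRPRB, CANX and PDIA6 lie left of 0 in K498A and DE636AA.

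The siNT libraries of each line were also compared with those of CLIP, which all 7 comparisons share. In DE636AA siNT, 5 members were lower than in CLIP siNT and 0 higher, beside 1.34% of all genes called. CALR had 837, 668 and 704 CPM in DE636AA siNT against 1024, 993 and 1011 CPM in CLIP siNT, a log2 difference of -0.46. SRPRB had 45.3, 38.8 and 40.7 CPM in DE636AA siNT against 54.7, 52.8 and 51.3 CPM in CLIP siNT, a difference of -0.35, and SSR3 (-0.32), SEC61A1 (-0.32) and VIMP (-0.30) were the others. The groups of CALR and SRPRB did not overlap. All 5 calls were lost without any 1 of CLIP siNT replicates 1, 2 and 3 and DE636AA siNT replicates 2 and 3 (edgeR adjusted p up to 0.281), those of VIMP, SEC61A1 and SSR3 with no filter, and those of VIMP and SEC61A1 in a model of only the groups compared, which called 1 member in R843C siNT. In the other 6 lines edgeR and DESeq2 called 0 members, with 8 at an unadjusted p under 0.05 in K498A and 1 or 2 in each of R843C, A546H, GA-KH, E797R and WT. The shares of all genes called there were 0.0366% for K498A, 0.0889% for R843C, 0.125% for A546H, 0.0627% for GA-KH, 0.0261% for E797R and 0.0314% for WT (0.0157% higher and 0.0157% lower).

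Other genes of the pathway, taken from lists chosen with earlier results of these data known, had the following counts. In CLIP, 81.8% of the tested genes were called in the PERK and ATF4 arm and in the ATF6 family, 61.9% in folding and redox, 61.1% in ER-associated decay and 50% in targeting, translocation and N-glycosylation, against 47.4% of all genes, to which the last is near. In WT the shares were 18.2%, 27.3%, 61.9%, 33.3% and 12.5% in the same order, against 27.2% of all genes. Of 11 genes of the PERK and ATF4 arm, 8 rose and 1 fell in CLIP, with a median log2 fold change of 0.99 (0.78 without siUPF1 replicate 2). Without that library SESN2 was at 1.73 and PPP1R15A at 1.27, and the values that follow include it. The stress protein gene SESN2 had a mean of 153 CPM with siUPF1 against 39.3 CPM with siNT in CLIP (1.96, SE 0.13, edgeR adjusted p = 2.56e-15), and PPP1R15A, whose product reverses the phosphorylation made by PERK, 186 against 62.9 CPM (1.56, SE 0.18, adjusted p = 2.41e-09). EIF2S1, the phosphorylated factor itself, was at -0.33 (adjusted p = 0.00938), which was not called without CLIP siUPF1 replicate 2 (-0.16). The same 11 genes had 5 higher and 1 lower in K498A, 7 and 1 in DE636AA, 4 and 0 in R843C, 4 and 0 in A546H, 1 and 0 in GA-KH, 2 and 0 in E797R, and 2 and 0 in WT. The shares called were 54.5%, 72.7%, 36.4%, 36.4%, 9.09%, 18.2% and 18.2% in the same order. Those of all genes were 32.7%, 34.3%, 32.5%, 32.2%, 28.3%, 29.5% and 27.2%. The list was thus near all genes in R843C and A546H and below them in GA-KH, E797R and WT. The median of the 11 genes was 0.34, 0.52, 0.18, -0.04, -0.12, 0.02 and -0.05 in the same order.

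Of 11 tested genes of the ATF6 family, its proteases and IRE1 partners, 7 rose and 2 fell in CLIP and 3 rose in WT. CREB3L2, an ER-anchored transcription factor related to ATF6, had 140 CPM with siUPF1 against 49.3 CPM with siNT in CLIP (1.51, SE 0.08, edgeR adjusted p = 3.36e-18) and rose in all 8 lines by 1.32 to 1.59. ATF6B, the paralog of ATF6, had 111 against 58.2 CPM in CLIP (0.92, and 0.73 without siUPF1 replicate 2) and rose in all 8 by 0.74 to 0.92. MBTPS2, a protease that cleaves ATF6, fell in CLIP by 0.70 on the log2 scale (-0.42 without siUPF1 replicate 2), and NFYA, a subunit of NF-Y, was at -0.29, which was not called without CLIP siUPF1 replicate 2 (-0.09).

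Of 21 other genes of folding and redox, 12 rose and 1 fell in CLIP and the same numbers in WT, with TXNDC11 (1.34, SE 0.07) and ERP29 (1.08, SE 0.07) highest in CLIP and DNAJB12 (-0.18) the gene called lower there. ERP44 was at -0.35, not called. Of 18 other genes of ER-associated decay, 7 rose and 4 fell in CLIP, with AUP1 (0.59) and MAN1B1 (0.52) highest and HERPUD2 (-1.16) and UBE2J1 (-0.51) lowest. Without CLIP siUPF1 replicate 2, MAN1B1 was at 0.26 and UBE2J1 at -0.28, both still called. Of 24 other genes of targeting, translocation and N-glycosylation, 1 rose (DDOST, 0.16) and 11 fell in CLIP, with STT3B and SEC61A2 lowest (-0.74 each). Without CLIP siUPF1 replicate 2, 2 rose and 6 fell, and STT3B was at -0.48 and SEC61A2 at -0.43. In WT these 24 had 2 higher and 1 lower. Without that library the PERK and ATF4 arm had 7 higher and 0 lower, the ATF6 family 7 and 1, folding and redox 14 and 1, and ER-associated decay 9 and 3 in CLIP. Of all genes, 7872 were called in CLIP in that fit, against 9066 with the library.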

How the data were processed

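Total RNA depleted of ribosomal RNA was sequenced with paired ends, per the labels' protocols. The deposited table holds RSEM expected counts per gene, estimated by the authors. The submitters' processing notes name cutadapt, STAR, RSEM, DESeq2 and the build hg19; versions, strand setting and read filters are not given in the sources used here. Expected counts, 10.3% of which were not whole, were rounded.

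Genes passing edgeR's filterByExpr (19129 of 57820) were fitted with TMM normalisation and the quasi-likelihood test (R 4.3.3, edgeR 4.0.16, limma 3.58.1) in 1 model of 16 groups over 48 libraries, with Benjamini-Hochberg adjustment per comparison. CPM uses TMM library sizes. The script was tested on simulated data. The comparisons were siUPF1 against siNT in each of 8 lines, each response against that of WT, and each line's siNT against CLIP siNT. Alternatives were RLE size factors, DESeq2 1.42.0, no filter, only the groups compared, a replicate block and leaving out each library. Alternatives for members outside the rule below, and lists without CLIP siUPF1 replicate 2, were added after seeing the data.

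Members and lists were chosen with earlier results of these data known. Values in every library are given for ERN1, ATF6, EIF2AK3, XBP1, HSPA5 and HSP90B1, and for the 3 members of each role with the largest called log2 fold change, groups not overlapping and a mean of 5 CPM or more. Levels of CANX, HERPUD1 and SRPRB were added after their values were seen, as were the comments on other members. The 3 highest and 3 lowest called differences against WT or CLIP siNT, and the 2 highest and 2 lowest called genes of each pathway list in CLIP, were named by rule. The labels do not say that the 3 libraries of a group came from separate cultures, so p-values measure the spread between these libraries, which may be technical. Same-numbered siUPF1 and siNT libraries deviated together in every pair (correlation over 0.1) in K498A (0.157 to 0.283) and GA-KH (0.122 to 0.275), a pairing seen in the data and not given by the labels; WT had 1 pair at 0.092. Counts of different libraries of 1 group differed beyond sampling noise in all 48 pairs. Promoter windows are from RefSeq (GRCh38.p14).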

Additional observations from a re-analysis of the deposited data

Results flagged for a closer look

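The responses below differed from that in the WT line by the interaction term of the edgeR model, with an adjusted p under 0.05 over all genes. They are 17 differences in 12 of the 40 genes and 4 of the 7 lines compared with WT, as differences of log2 fold changes (siUPF1 over siNT).

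In CLIP, which expressed no UPF1 transgene, the difference was 1.10 for ERN1, 0.72 for EDEM2, 0.67 for TBL2, 0.50 for EDEM1 and 0.35 for XBP1. UPF1 itself was at 17.7 to 36.8 CPM in CLIP siUPF1 libraries, and at 3695 CPM or more in the siUPF1 libraries of the other lines. In R843C the difference was 0.38 for TBL2.

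In DE636AA it was 0.85 for HERPUD1, 0.59 for XBP1, 0.54 for HSPA5, 0.43 for EIF2AK3, -0.62 for SRPRB, -0.58 for SSR1, -0.37 for CANX and -0.36 for PDIA6. In K498A it was -0.64 for SRPRB, -0.48 for PDIA6 and -0.40 for CANX. SRPRB, CANX and PDIA6 were thus among the differences in both lines with altered ATP motifs. Both comparisons use the same 6 WT libraries.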

How the results depend on the processing

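Of the 133 calls of members with siUPF1 against siNT, 90 held without each library in turn, 97 under every other setting and 81 under all of these. Of the 17 differences from the WT response, 11, 7 and 7 did, and of the 5 differences with siNT 0, 2 and 0. Fitting only the groups compared gave 10 calls in CLIP (10 higher) and 22 in R843C (16 higher, 6 lower), where the 16-group model gave 20 and 12. Calls over all genes moved the same way, from 9066 to 3741 in CLIP and from 6213 to 8765 in R843C. Fitting only the groups compared also gave 3, 5 and 4 differences from the WT response in CLIP, K498A and DE636AA. Against CLIP siNT it gave 3 in DE636AA siNT and 1 in R843C siNT. The cause was not tested. For the K498A response, DESeq2 gave 5 differences and no filter 6. For R843C, RLE gave 0 and no filter 0. K498A siNT against CLIP siNT gave 2 with no filter.

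Leaving out 1 library at a time gave 17 to 24 calls for CLIP, 16 to 17 for K498A, 19 to 23 for DE636AA, 10 to 11 for R843C, 7 to 10 for A546H, 8 to 13 for GA-KH, 14 to 17 for E797R and 12 to 17 for WT. Differences from the WT response numbered 4 to 10 in CLIP, 3 to 6 in K498A, 4 to 8 in DE636AA, 0 to 1 in R843C and 0 to 0 in the others. Differences with siNT numbered 0 to 6 in DE636AA and 0 to 0 elsewhere.

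Outside K498A and GA-KH, each line had a same-numbered pair of siUPF1 and siNT libraries whose deviations correlated at 0.1 or less, the range being -0.007 to 0.255. Over all lines, 21 of 24 siUPF1 libraries correlated best with their own number, among them each library of WT, DE636AA, R843C and A546H. Same-numbered libraries may thus covary in those lines too, and the main model has no replicate term. A replicate block gave 24 calls for CLIP, 21 for K498A, 25 for DE636AA, 12 for R843C, 11 for A546H, 12 for GA-KH, 18 for E797R and 20 for WT, 7 differences for the K498A response and 2 for K498A siNT. It lost no call. In the lines other than K498A and GA-KH it added HSPA5, HSP90B1, CANX and PDIA3 in CLIP, DNAJC3 in DE636AA, MANF in E797R and DNAJB9 and EDEM1 in WT. The block is an effect of replicate number common to all lines, so it does not test pairing within a line. It changed no call in GA-KH. Over all genes the block raised the number of calls in every line, from 9066 to 9778 in CLIP and from 5211 to 6057 in WT, for example.

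Depth limits few members, the lowest having 140 expected counts. The limits lie elsewhere, first in 3 libraries a group and a CLIP library that stands apart. Counts per gene do not separate spliced XBP1 or isoforms, and overlapping genes were counted with an unknown strand setting. A transgene hides the knockdown of endogenous UPF1 in 7 lines. The only siRNA comparison was siUPF1 against siNT, so effects of the siRNA apart from the loss of UPF1 were not tested.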
